A study of Mus musculus with 6 samples.

Results

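Latent TGF-beta binding and feedback genes are 9 genes that set how much TGF-beta reaches its receptors and how strongly the cell answers. They were chosen by gene symbol, with no measured value in the rule, though with earlier results of these data known. The group holds Ltbp1, Ltbp2, Ltbp3 and Ltbp4, the ligand gene Tgfb3, the co-receptor gene Tgfbr3, Thbs1, and the corepressor genes Ski and Skil. All 9 were among the 46095 genes of the count table, and all 9 were among the 14611 genes that passed the filter on low counts and were tested.

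TGF-beta is secreted in a latent form, held inactive by its own propeptide. Latent TGF-beta binding proteins, the products of the Ltbp genes, tether that complex to fibrillin and other fibres of the extracellular matrix, from which integrins, proteases or thrombospondin-1 (the product of Thbs1) can release active ligand. Active ligand binds the type II and type I receptors, helped for some ligands by betaglycan (the product of Tgfbr3), and the receptors phosphorylate Smad proteins that then enter the nucleus. Ski and SnoN (the product of Skil) bind Smads there and repress their target genes, and TGF-beta signalling in turn has SnoN degraded and the Skil gene transcribed. In the kidney this pathway is best known as a driver of matrix deposition in fibrosis.

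RNA-seq was performed on renal tubular epithelial cells (PTECs) freshly isolated from mice at 10 weeks of age, with 3 mice and 3 libraries for each of 2 labels. The label VHL-KO was given to replicates 1, 2 and 4, and VHL-KO;SETD2-KO to replicates 2, 3 and 4. Mice of both groups were on a C57 background and carried floxed VHL alleles (VHL fl/fl) and Ksp-Cre, a transgene in which the Cdh16 promoter drives Cre recombinase in renal tubular epithelium. The second group carried floxed Setd2 alleles (Setd2 fl/fl) as well. The VHL deletion genotype was thus common to all 6 libraries, none came from a mouse without it, and cells without Cre activity kept both genes. The comparison asks which RNA levels differ when SETD2, the enzyme that trimethylates lysine 36 of histone H3, is deleted on top of VHL. Levels are in CPM, counts scaled to a common library size with TMM factors, and are listed in the order of replicates given here.

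The libraries held 11168552 to 17883466 counts, and 3 counts, taken as the smallest detectable signal, were worth 0.159 to 0.280 CPM (counting error only). Setd2 was not lower under VHL-KO;SETD2-KO, and the labels overlapped. VHL-KO libraries had 1179, 799 and 132 counts of it (71.3, 73.8 and 12.3 CPM). VHL-KO;SETD2-KO libraries had 1499, 1019 and 1429 (79.5, 57.3 and 89.5 CPM). The log2 fold change was 0.52 (SE 0.64, adjusted p = 0.787 by edgeR), with the 1 far lower value in VHL-KO replicate 4. Counts per gene do not show whether the Setd2 reads lie in the deleted exons. Vhl was at 11.8 to 25.8 CPM in all 6 libraries. Every direction given here is therefore between libraries labelled in 2 ways. VHL-KO replicate 4 stood apart from the rest: its mitochondrial genes took 11.3% of counts against 25.9% to 36.4% in the other 5 libraries, and its long genes were low. For the quintile of genes with the longest exons its median log2 CPM lay 1.42 below the mean of VHL-KO replicates 1 and 2, and for the quintile with the shortest it lay 1.10 above. The fold changes of the members are given with and without it.

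The libraries were not equal in the RNA of cell type markers. Proximal tubule markers were abundant in all 6 libraries, with summed CPM of 31584 to 34686 under VHL-KO and 10833 to 15014 under VHL-KO;SETD2-KO, and 3 of the 10 were called lower. The fit placed 9 of the 10 lower and 1, Slc5a12, higher. Without overlap between the labels 5 were lower, beside 11.0% of all tested genes. Kap was a large part of the sums, at 18256, 16158 and 7605 CPM under VHL-KO and 6748, 1214 and 6954 CPM under VHL-KO;SETD2-KO. A call here means an unadjusted p under 0.05 by edgeR and a fold change of at least 1.5, and 0 markers of any list passed with an adjusted p. The 8 podocyte markers summed to 1531, 2083 and 2259 CPM under VHL-KO and to 5159, 2103 and 4591 under VHL-KO;SETD2-KO, and 4 of the 8 were called higher. The 8 endothelial markers summed to 1987, 2465 and 1707 CPM and to 5664, 1975 and 4842 CPM, with 0 of 8 called. Replicates 2 and 4 of the VHL-KO;SETD2-KO libraries were thus rich in RNA of glomerular cell types and replicate 3 was not. Collecting duct markers (8 genes) summed to 54.6, 87.9 and 559 CPM and to 95.0, 323 and 101 CPM, with 2 called higher, and stromal and smooth muscle markers (10 genes, 9 tested) to 114, 110 and 746 CPM and to 262, 252 and 114 CPM, with 0 called. Thick limb and distal tubule markers (8 genes) summed to 2106, 3047 and 7593 CPM and to 2363, 6098 and 2831 CPM, with 1 called higher. Leukocyte markers (10 genes, 9 tested) summed to 117, 323 and 314 CPM and to 228, 79.9 and 275 CPM, with 2 called lower. No marker was at or under 3 counts in all 6 libraries. In bulk RNA, fewer cells of a type and less RNA per cell cannot be told apart.

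The Ltbp genes are the members for which most start sites were given, and the start regions of Ltbp1 and Ltbp3 are shown because their RNA levels moved in different ways across the libraries. The sequences are RefSeq windows of 250 bases before to 50 bases after an annotated start, on build GRCm38.p6, read 5′ to 3′ on the gene's strand. Capitals mark the Smad element CAGAC, or GTCTG where it lies on the other strand, and the cyclic AMP response element TGACGTCA. Ltbp1 has 2 annotated starts on the plus strand, at chr17:75005279-75005578 and chr17:75178531-75178830, and Ltbp3 has 1, on the plus strand at chr19:5740650-5740949.
Ltbp1, first start: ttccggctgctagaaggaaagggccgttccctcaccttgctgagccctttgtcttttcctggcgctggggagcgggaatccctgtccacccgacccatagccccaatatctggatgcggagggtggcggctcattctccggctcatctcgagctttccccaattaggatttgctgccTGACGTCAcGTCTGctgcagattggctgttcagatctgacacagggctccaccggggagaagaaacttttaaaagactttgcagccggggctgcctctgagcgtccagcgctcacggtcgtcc
Ltbp1, second start: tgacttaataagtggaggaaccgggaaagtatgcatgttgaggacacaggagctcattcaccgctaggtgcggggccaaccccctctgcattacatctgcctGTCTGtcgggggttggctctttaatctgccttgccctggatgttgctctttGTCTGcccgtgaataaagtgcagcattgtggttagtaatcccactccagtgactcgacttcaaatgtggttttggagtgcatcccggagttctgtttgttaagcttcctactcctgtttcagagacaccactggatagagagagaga
Ltbp3: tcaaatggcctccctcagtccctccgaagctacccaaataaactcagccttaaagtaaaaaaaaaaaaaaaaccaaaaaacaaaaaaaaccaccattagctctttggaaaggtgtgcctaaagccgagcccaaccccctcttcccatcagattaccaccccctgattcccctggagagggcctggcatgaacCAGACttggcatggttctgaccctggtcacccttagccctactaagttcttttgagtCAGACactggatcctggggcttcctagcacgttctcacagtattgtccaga

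Windows were given for 5 of the 9 members (8 windows, for Ltbp1, Ltbp2, Ltbp3, Ltbp4 and Ski). CAGAC was searched on both strands and occurred in the windows of Ltbp1, Ltbp2 and Ltbp3, and in 49.6% of all 32851 RefSeq windows of this length. With positions counted from the start site, the first Ltbp1 window had it at -64, next to a TGACGTCA element at -73, and that element is in 1.79% of all windows. The second Ltbp1 window had CAGAC at -148 and -97, and the Ltbp3 window at -58 and -1, where the last copy overlaps an AP-1 match (TGANTCA, in 7.81% of windows). Ltbp2 had CAGAC at -205, -176 and 29, in the window at chr12:84876442-84876741 on the minus strand. The hypoxia element cores ACGTG and GCGTG, searched because VHL controls hypoxia-inducible factors, are in 19.6% and 32.4% of all windows. ACGTG occurred in the first Ltbp1 window, where it overlaps the TGACGTCA element, and in the Ltbp3 window. GCGTG occurred in the windows of Ltbp2, Ski and Ltbp4. These are matches of letters and describe the windows only.

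Among all 9 members, the fit over 6 libraries placed 5 higher and 4 lower under VHL-KO;SETD2-KO, with a median log2 fold change of 0.16 against 0.0094 over all tested genes. One member, Thbs1, passed an unadjusted p under 0.05 with a fold change of at least 1.5 in edgeR's quasi-likelihood test, and it was higher. Of all tested genes, 2.66% were called higher by this rule and 4.68% lower, and 0 members were called lower. After Benjamini-Hochberg adjustment over all tested genes 0 members were called by edgeR, as were 0 genes higher and 1 gene lower of the 14611 (0% and 0.00684%). DESeq2 called Thbs1 alone at an unadjusted p (1.77% of its genes were called higher) and gave none of the members an adjusted p. Limma-voom called Thbs1 and Tgfbr3 (2.90%), as did edgeR on genes with at least 10 counts in every library (2.88%), and neither called a member after adjustment. Thbs1 and Tgfbr3 were the 2 members with no overlap between the labels, both higher under VHL-KO;SETD2-KO, where 9.62% of tested genes had such a pattern (11.0% in the lower direction, with 0 members).

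Ltbp1 (chr17:75005480-75392512), whose protein anchors latent TGF-beta in fibrillin-rich matrix, was at 32.1, 37.1 and 15.2 CPM under VHL-KO and at 94.4, 18.7 and 73.6 CPM under VHL-KO;SETD2-KO. Replicates 2 and 4 of the second group were above every VHL-KO library, and replicate 3 was below VHL-KO replicates 1 and 2, so the labels overlapped. The fold change was 2.21 (log2 1.14, SE 0.64, unadjusted p = 0.111 and adjusted p = 0.625 by edgeR). Without VHL-KO replicate 4 the log2 fold change was 0.84 (unadjusted p = 0.229, adjusted p = 0.485). Its high libraries were those with the highest podocyte and endothelial markers, and its low VHL-KO;SETD2-KO library had these markers at the VHL-KO level. Without that library, VHL-KO;SETD2-KO replicate 3, the log2 fold change was 1.58 (unadjusted p = 0.0248, adjusted p = 0.753 by edgeR), and Ltbp1 and Thbs1 were the 2 members called higher at an unadjusted p, against 2.37% of tested genes. The part of cell makeup in the difference was not tested.

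Ltbp4 (chr7:27305140-27339720), which is best known for its role in elastic fibre assembly, was at 58.5, 55.8 and 186 CPM under VHL-KO and at 132, 71.9 and 88.7 CPM under VHL-KO;SETD2-KO. All 3 libraries of the second group lay between VHL-KO replicates 1 and 2 on one side and VHL-KO replicate 4 on the other. The log2 fold change was -0.04 (SE 0.57, adjusted p = 0.984 by edgeR). Without VHL-KO replicate 4 it was 0.77 (SE 0.27, unadjusted p = 0.0303, adjusted p = 0.205).

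Ltbp3 (chr19:5740900-5758536), another carrier of latent TGF-beta, was at 9.92, 17.0 and 95.8 CPM under VHL-KO and at 30.9, 42.3 and 22.4 CPM under VHL-KO;SETD2-KO. It followed the Ltbp4 pattern, with VHL-KO replicate 4 highest and VHL-KO replicates 1 and 2 lowest of all 6 libraries. The log2 fold change was -0.36 (SE 0.80, adjusted p = 0.876 by edgeR) with that library and 1.25 (SE 0.35, unadjusted p = 0.0125, adjusted p = 0.152) without it.

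Ltbp2 (chr12:84783212-84876558), whose protein binds fibrillin but is not thought to carry latent TGF-beta, was the faintest member. It had 4, 15 and 108 counts under VHL-KO and 21, 36 and 20 counts under VHL-KO;SETD2-KO, or 0.242, 1.39 and 10.1 CPM and 1.11, 2.02 and 1.25 CPM. The labels overlapped with and without VHL-KO replicate 4. The log2 fold change was -1.40 (SE 1.09, adjusted p = 0.685 by edgeR) over all libraries and 0.91 without VHL-KO replicate 4 (unadjusted p = 0.278). Without VHL-KO replicate 1 it was -1.94 (unadjusted p = 0.0493, adjusted p = 0.576), so its sign rested on VHL-KO replicate 4.

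The makeup of the Ltbp family varied between libraries of the same label. Per exon length, Ltbp4 RNA was the largest part in every library, at 60.2%, 51.8% and 58.9% of the family under VHL-KO and 53.1%, 52.4% and 50.0% under VHL-KO;SETD2-KO. Ltbp1 made up 28.1%, 29.3% and 4.09% under VHL-KO and 32.4%, 11.5% and 35.2% under VHL-KO;SETD2-KO. Ltbp3 made up 11.5%, 17.8% and 34.2%, and then 14.1%, 34.8% and 14.2%. VHL-KO replicate 4 and VHL-KO;SETD2-KO replicate 3 thus had little Ltbp1 and much Ltbp3, and the other 4 libraries the reverse. Ltbp2 was at 2.76% or less throughout. For shares of counts, the difference in mean share was 6.61 percentage points for Ltbp1, -0.72 for Ltbp2, -0.31 for Ltbp3 and -5.58 for Ltbp4. Without VHL-KO replicate 4 it was -2.61, 0.13, 5.90 and -3.41, so for Ltbp1 and Ltbp2 the direction turned on that library. For Ltbp3 the difference was also above 0 without VHL-KO;SETD2-KO replicate 2 (2.93) and without VHL-KO;SETD2-KO replicate 4 (2.91). Over 6 libraries none passed a two-sided exact permutation test (p = 0.5, 0.7, 1 and 0.3, with an adjusted p of 1 over 6 shares), but 3 against 3 libraries cannot give a p under 0.1.

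**Figure D1:**
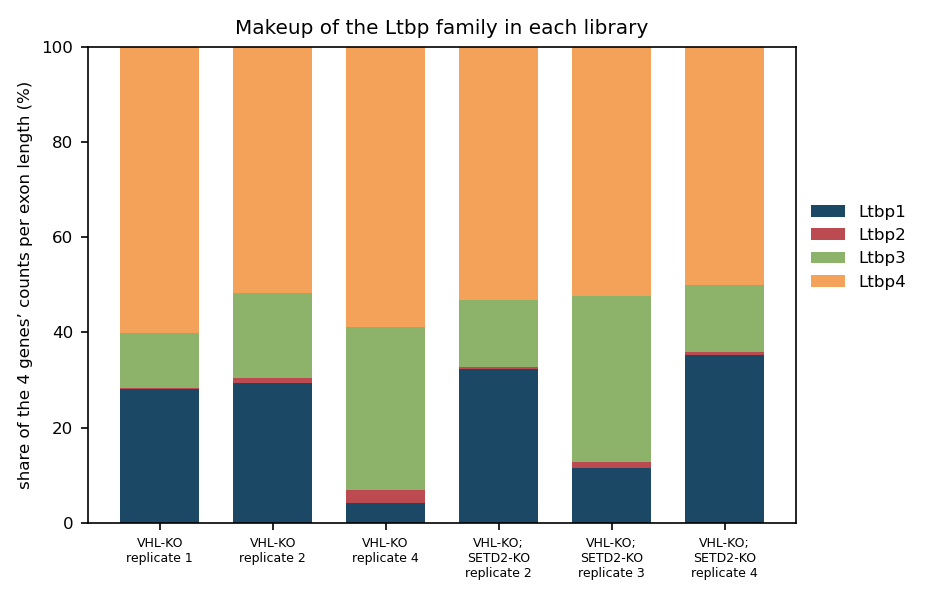
Stacked bars of the percentage that each of Ltbp1, Ltbp2, Ltbp3 and Ltbp4 makes up of their summed counts per exon length (y axis) in each of the 6 libraries (x axis). Ltbp1 is smallest, at 4.09% and 11.5%, in VHL-KO replicate 4 and VHL-KO;SETD2-KO replicate 3, where Ltbp3 is largest.

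Tgfb3 (chr12:86056743-86079041), which encodes one of the 3 TGF-beta ligands, had 12, 7 and 68 counts under VHL-KO and 34, 40 and 21 counts under VHL-KO;SETD2-KO. In CPM these were 0.726, 0.646 and 6.35, and 1.80, 2.25 and 1.31. As for Ltbp3, every VHL-KO;SETD2-KO library lay above VHL-KO replicates 1 and 2 and below VHL-KO replicate 4. The log2 fold change was -0.51 (SE 0.89, adjusted p = 0.840 by edgeR) over 6 libraries and 1.36 (SE 0.45, unadjusted p = 0.0232, adjusted p = 0.186) without VHL-KO replicate 4. Tgfb3 took 2.93%, 2.14% and 11.1% of the counts of Tgfb1, Tgfb2 and Tgfb3 under VHL-KO and 3.02%, 10.2% and 3.01% under VHL-KO;SETD2-KO, a difference in means of 0.0109 percentage points (exact permutation p = 1) that became 2.88 without VHL-KO replicate 4.

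Tgfbr3 (chr5:107106567-107289629), whose product betaglycan presents TGF-beta to the signalling receptors, was at 35.2, 38.0 and 19.9 CPM under VHL-KO and at 70.5, 51.3 and 56.4 CPM under VHL-KO;SETD2-KO. Every library of the second group was above every library of the first, and the means were 31.0 ± 9.76 and 59.4 ± 9.94 CPM (SD, n = 3). The fold change was 1.91 (log2 0.94, SE 0.41), with an unadjusted p of 0.0520 and an adjusted p of 0.625 by edgeR. Without VHL-KO replicate 4, in which Tgfbr3 was lowest, the log2 fold change was 0.70 (SE 0.18, unadjusted p = 0.00744, adjusted p = 0.129). In VHL-KO;SETD2-KO replicate 3, where podocyte and endothelial markers were at the VHL-KO level, Tgfbr3 was above all VHL-KO libraries. The summed CPM of proximal tubule markers was lower in all 3 VHL-KO;SETD2-KO libraries, though not that of every marker. The part of cell makeup in the Tgfbr3 values was not tested.

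Thbs1 (chr2:118111876-118127133), which encodes thrombospondin-1, a matrix glycoprotein that can release TGF-beta from latency, was at 22.7, 39.0 and 22.8 CPM under VHL-KO and at 56.9, 81.1 and 75.1 CPM under VHL-KO;SETD2-KO. The labels did not overlap, and the means were 28.1 ± 9.37 and 71.0 ± 12.6 CPM (SD, n = 3). The fold change was 2.52 (log2 1.34, SE 0.41), with an unadjusted p of 0.0117 and an adjusted p of 0.625 by edgeR. It was 1.20 on the log2 scale without VHL-KO replicate 4 (SE 0.28, unadjusted p = 0.00528, adjusted p = 0.112). Without VHL-KO replicate 1 it was 1.21 and missed the threshold (unadjusted p = 0.0525, adjusted p = 0.576). The level of Thbs1 was highest in VHL-KO;SETD2-KO replicate 3, the library of that group with the fewest podocyte and endothelial transcripts. The summed CPM of proximal tubule markers was lower in all 3 VHL-KO;SETD2-KO libraries, though not that of every marker, and Thbs1 was higher in them. Whether cell makeup contributes was not tested.

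**Figure D2:**
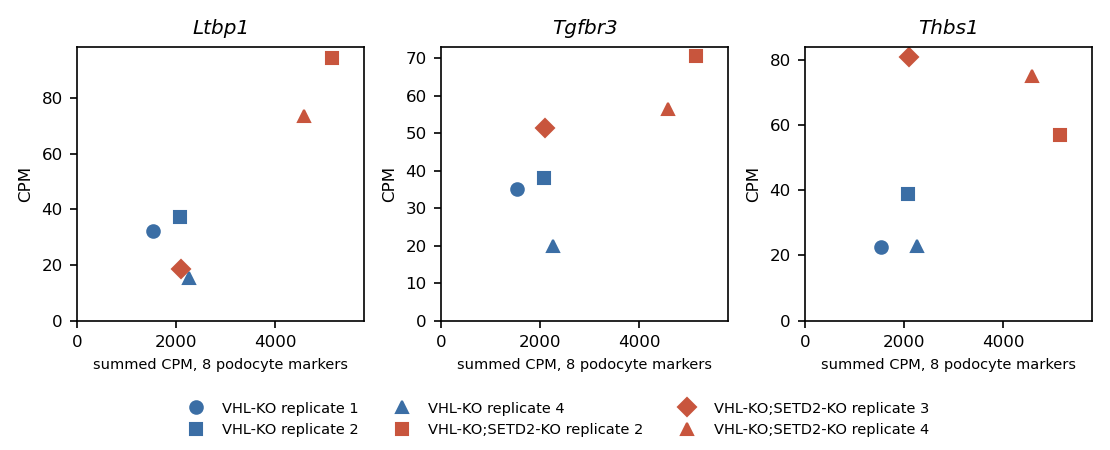
CPM of Ltbp1, Tgfbr3 and Thbs1 (y axes) against the summed CPM of 8 podocyte markers (x axes), with 1 point per library, blue for VHL-KO and red for VHL-KO;SETD2-KO. Ltbp1 is high in the 2 libraries with marker sums of 4591 and 5159 CPM and low in the other 4, while Thbs1 is highest, at 81.1 CPM, in the red library with a marker sum of 2103 CPM.

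Ski (chr4:155154075-155222535), which encodes a nuclear corepressor of Smads, was at 57.8, 65.1 and 93.3 CPM under VHL-KO and at 93.5, 67.7 and 80.3 CPM under VHL-KO;SETD2-KO. The labels overlapped and the log2 fold change was 0.16 (SE 0.39, adjusted p = 0.890 by edgeR). Without VHL-KO replicate 4 its log2 fold change was 0.39 (unadjusted p = 0.0713).

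Skil (chr3:31095058-31122923), whose product SnoN is both a brake on Smads and a target of TGF-beta signalling, was at 48.6, 63.8 and 7.56 CPM under VHL-KO and at 61.9, 51.4 and 69.6 CPM under VHL-KO;SETD2-KO. VHL-KO replicate 4 was far below the rest, and the other 5 libraries lay between 48.6 and 69.6 CPM with the labels intermixed. The log2 fold change was 0.61 (SE 0.68, adjusted p = 0.771 by edgeR), and 0.11 without that library. Ski took 54.3%, 50.5% and 92.5% of the summed counts of Ski and Skil under VHL-KO and 60.2%, 56.8% and 53.6% under VHL-KO;SETD2-KO. The difference in means was -8.92 percentage points (exact permutation p = 0.9), and 4.45 without VHL-KO replicate 4, so its sign rested on that library.

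VHL-KO replicate 4 was an extreme for 7 of the 9 members. It was above all other 5 libraries for Ltbp2, Ltbp3, Ltbp4 and Tgfb3, below all other 5 for Ltbp1, Tgfbr3 and Skil, and within their range for Thbs1 and Ski. Its log2 level minus the mean of VHL-KO replicates 1 and 2 was 3.76 for Ltbp2, 2.99 for Tgfb3, 2.87 for Ltbp3 and 1.70 for Ltbp4. It was -1.18 for Ltbp1, -0.87 for Tgfbr3 and -2.86 for Skil. Exon lengths ran from 3383 bp for Tgfb3 to 6901 bp for Ltbp1, and genes as long as Ltbp1, Ltbp2, Ltbp4, Tgfbr3, Thbs1, Ski and Skil had a median of -1.42. Ltbp2 and Ltbp4 thus lay far above genes of their own length in this library, and Skil below them. Ski (0.60) and Thbs1 (-0.38) were above that median too. Ltbp3 and Tgfb3 were above the medians for their lengths, -0.62 and 0.081. Ltbp1 and Tgfbr3, though below all other 5 libraries, were not below the median of -1.42. The sums of stromal markers (746 CPM), collecting duct markers (559 CPM) and thick limb and distal tubule markers (7593 CPM) were also highest in this library. Large parts of these sums were Ren1 (300 CPM), Aqp2 (257 CPM) and Umod (2950 CPM). Other markers went the other way. Slc12a1 (79.1 CPM), Calb1 (42.4 CPM) and Atp6v1g3 (2.71 CPM) were lowest in this library, and Pdgfrb, Pdgfra, Dcn and Lum were not highest in it. The part of cell makeup in the Ltbp2, Ltbp3, Ltbp4 and Tgfb3 values was not tested.

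**Figure D3:**
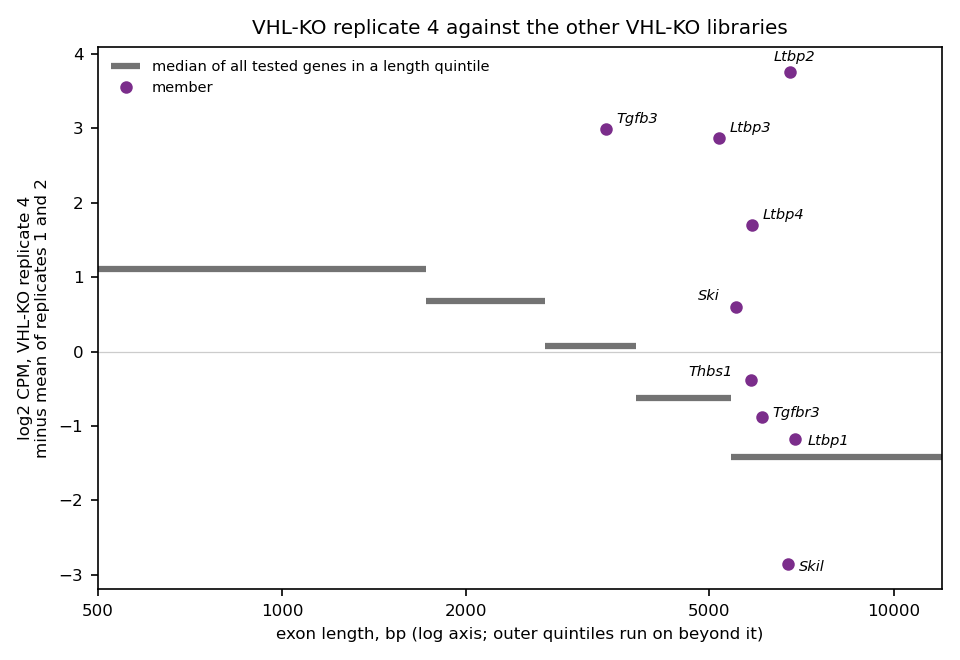
Difference in log2 CPM between VHL-KO replicate 4 and the mean of VHL-KO replicates 1 and 2 (y axis) against exon length in bp (x axis, log scale), with a point per member and grey lines for the median of all tested genes in each quintile of length. The grey medians fall from 1.10 to -1.42 with length, and the members scatter from -2.86 (Skil) to 3.76 (Ltbp2).

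When VHL-KO replicate 4 was left out, all 9 members were fitted higher under VHL-KO;SETD2-KO, and 5 (Ltbp3, Ltbp4, Tgfb3, Tgfbr3 and Thbs1) passed the unadjusted p and 1.5-fold rule by edgeR, all higher. In that fit 8.29% of all tested genes were called higher and 7.15% lower. The members without overlap were 6, these 5 and Ski (20.1% of all tested genes were higher without overlap, and 21.4% lower). After adjustment 0 members were called by edgeR, as were 0% of genes higher and 0.00667% lower. DESeq2 without that library called 5 members higher at an unadjusted p (6.02% of genes) and 3 after adjustment, with adjusted p of 0.0201 for Ltbp3, 0.0432 for Tgfbr3 and 0.00464 for Thbs1, where 3.49% of genes were called higher. Limma-voom with sample quality weights, which gave VHL-KO replicate 4 a weight of 0.0376 and the other 5 libraries 0.458 to 3.62, called 6 members higher at an unadjusted p (14.5% of genes) and 5 after adjustment (9.94%). When VHL-KO;SETD2-KO replicate 3 was left out as well, 5 members passed with an adjusted p under 0.05 and a fold of at least 1.5 by edgeR, namely Ltbp1 (log2 1.28, adjusted p = 0.00610), Ltbp3 (1.00, 0.0479), Ltbp4 (0.95, 0.0184), Tgfbr3 (0.80, 0.0130) and Thbs1 (1.11, 0.0293). In that fit of 2 against 2 libraries 8.90% of all tested genes were called higher. At an unadjusted p it called 6 members higher (13.4% of genes), and 7 were higher without overlap (32.7%). The pair of VHL-KO;SETD2-KO libraries that remained was the pair with high podocyte and endothelial markers, so genotype label and those markers cannot be told apart in it.

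**Figure D4:**
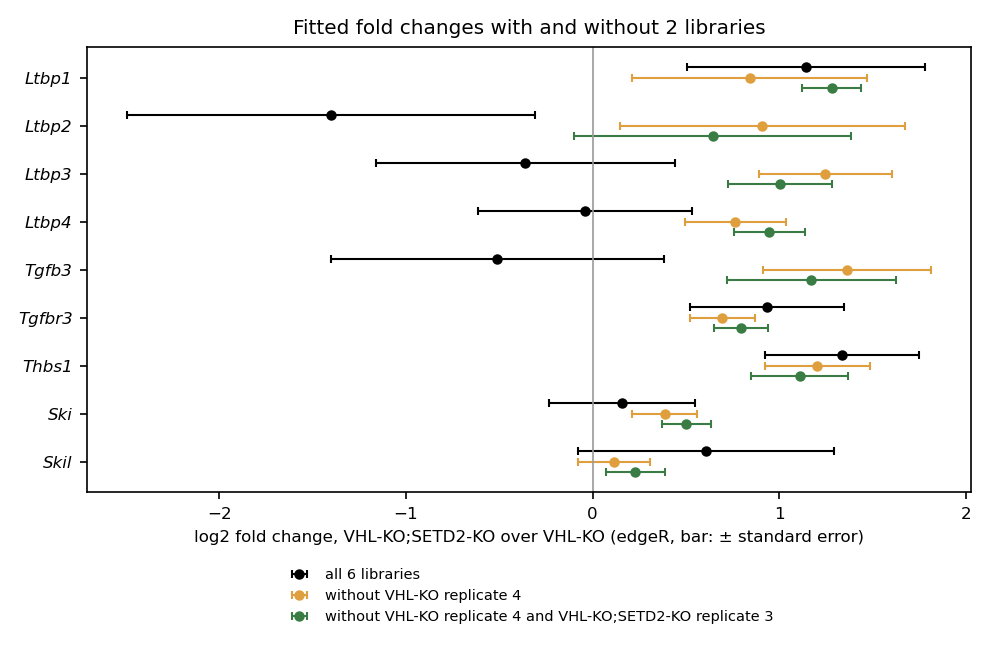
Log2 fold change of VHL-KO;SETD2-KO over VHL-KO by edgeR (x axis, bars ± standard error) for each member (y axis), over all 6 libraries (black), without VHL-KO replicate 4 (orange), and without that library and VHL-KO;SETD2-KO replicate 3 (green). Thbs1, Tgfbr3, Ltbp1, Ski and Skil are above 0 in all 3 fits, while Ltbp2, Ltbp3, Ltbp4 and Tgfb3 lie below 0 only in the black fit.

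Across all 17 alternatives to the fit over 6 libraries, the log2 fold change of Thbs1 stayed between 1.11 and 1.65. Its unadjusted p was under 0.05 in 15 of the 17, all but the fit without VHL-KO replicate 1 and the fit with a replicate block (0 members called, 0.637% of genes higher), and its adjusted p in 3, with adjusted p between 0.00464 and 0.982 over the edgeR, DESeq2 and limma fits. Tgfbr3 was higher in all 17 (0.69 to 1.20), with an unadjusted p under 0.05 in 6. Ltbp1, Ski and Skil were also higher in all 17. Ltbp3 was higher in 5 of 17 and Ltbp4 in 12 of 17, so neither has a direction that holds across fits.

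In CPM per kb of exon, which allows genes to be compared with each other, the median over 6 libraries was 13.7 for Ltbp4 and 13.4 for Ski, then 8.43 for Skil, 8.20 for Thbs1 and 7.34 for Tgfbr3. It was 5.13 for Ltbp3 and 5.02 for Ltbp1, and 0.461 for Tgfb3 and 0.195 for Ltbp2. Ltbp4 lay at the 75.9th percentile of tested genes and Ltbp2 at the 2.27th. Neighbours in this order often could not be separated: Ltbp4 was above Ski in 4 of 6 libraries, Skil above Thbs1 in 2 of 6, Thbs1 above Tgfbr3 in 4 of 6, and Ltbp3 above Ltbp1 in 2 of 6. Ski was above Skil in 6 of 6, and Ltbp1 above Tgfb3 in 6 of 6.

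Likeness of pattern was measured as the root mean square difference of gene-centred log2 CPM over the 6 libraries. Within the group the closest pair was Ltbp3 and Tgfb3 (0.274), followed by Ltbp4 and Ski (0.394) and by Tgfbr3 and Thbs1 (0.430). Ltbp2 was nearest to Ltbp3 (0.558), Ltbp1 to Tgfbr3 (0.627) and Skil to Tgfbr3 (0.683). Among all other genes of sufficient level, the nearest gene was Atp2b2 for Thbs1 (0.0941), Cyp20a1 for Tgfbr3 (0.0943), Dram1 for Ltbp1 (0.0871), Dbn1 for Ltbp3 (0.117), Gpr182 for Ltbp4 (0.118), Tesc for Tgfb3 (0.112), Nbl1 for Ltbp2 (0.387), Plcb3 for Ski (0.0659) and Arid4a for Skil (0.0516). With 6 libraries and 12398 or 12399 candidates per member a close match is easily found, and these names are a description only.

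Beyond the members, 61 other genes of TGF-beta latency, signalling, feedback and response were examined, of which 57 were tested. The fit placed 39 higher and 18 lower, with a median log2 fold change of 0.24. By edgeR 2 were called higher and 0 lower at an unadjusted p, beside 2.66% and 4.68% of all tested genes, and 0 after adjustment. The 2 were Itgb3 and Snai2. Itgb3, the beta subunit of an integrin that can bind latent TGF-beta, was at 3.15, 4.25 and 4.20 CPM under VHL-KO and 8.86, 19.3 and 9.33 CPM under VHL-KO;SETD2-KO (log2 fold change 1.69, SE 0.47, unadjusted p = 0.00686, adjusted p = 0.625). Like Thbs1, it was highest in VHL-KO;SETD2-KO replicate 3. Snai2, a transcription factor of epithelial-mesenchymal transition, was at 2.36, 2.40 and 1.03 CPM and at 4.93, 4.78 and 5.26 CPM (log2 1.36, SE 0.50, unadjusted p = 0.0254, adjusted p = 0.625). Both had no overlap between the labels. The call of Snai2 was lost without VHL-KO;SETD2-KO replicate 2 (unadjusted p = 0.0681 by edgeR) and without VHL-KO;SETD2-KO replicate 4 (unadjusted p = 0.0796), and that of Itgb3 was not lost when any 1 library was left out. With the replicate number as a block neither passed (unadjusted p = 0.299 for Itgb3 and 0.150 for Snai2).

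By role, the fit placed both other ligand genes higher, as well as 10 of 14 tested genes of latency and activation, 4 of 4 receptor genes, 2 of 3 Smad genes, 12 of 18 inhibitors and feedback genes and 9 of 16 tested target genes. The other 2 genes with no overlap and higher values were Smad4 and Smad7, and Furin, whose protease cleaves the TGF-beta propeptide, was the 1 gene with no overlap and lower values. In all, 4 genes of the list were higher without overlap and 1 lower, beside 9.62% and 11.0% of all tested genes. These 3 were named after their values had been seen. Furin was at 146, 130 and 386 CPM under VHL-KO and 96.9, 113 and 98.6 CPM under VHL-KO;SETD2-KO, and Smad4, the common Smad, at 61.1, 57.3 and 17.3 CPM and at 72.4, 64.2 and 65.4 CPM. Smad7, the inhibitory Smad, was at 28.1, 37.3 and 22.4 CPM under VHL-KO and 43.6, 37.6 and 45.9 CPM under VHL-KO;SETD2-KO, and its log2 fold change of 0.53 had an adjusted p of 0.660 by edgeR. Tgfb2 was at 4.78, 3.88 and 0.840 CPM and at 11.5, 4.33 and 9.27 CPM (log2 1.39, unadjusted p = 0.0749, adjusted p = 0.625 by edgeR), with the same high libraries as Ltbp1. Postn, a matrix protein gene, had a log2 fold change of 1.56 (unadjusted p = 0.0930 by edgeR) from values of at most 2.60 CPM.

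The largest fitted falls in the list were those of Col1a1 (-2.70), Fmod (-1.55), Col3a1 (-1.38) and Tagln (-1.30), and none passed the test (unadjusted p of 0.0875, 0.102, 0.181 and 0.349 by edgeR). These are genes of fibrillar collagen, of a collagen-binding proteoglycan that also binds TGF-beta, and of smooth muscle cytoskeleton. Each was highest in VHL-KO replicate 4, with 44.8 CPM for Col1a1 and 124 CPM for Tagln, in the same library that was highest for Ltbp2, Ltbp3, Ltbp4 and Tgfb3. Without that library all 4 were fitted higher, at 0.64 for Col1a1, 0.070 for Fmod, 0.40 for Col3a1 and 2.23 for Tagln (unadjusted p = 0.0240 for Tagln by edgeR). In that fit 15 of the list were called higher and 3 lower at an unadjusted p by edgeR, beside 8.29% and 7.15% of all tested genes, and 0 after adjustment.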

How the data were processed

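The authors extracted RNA with TRIzol, made directional paired-end Illumina libraries and deposited raw counts per gene symbol, without normalization. The submitters' processing notes name HISAT2 2.0.4 and GRCm38. The counting program, annotation and strand setting are not given in the sources used here. Groups came from the sample labels. From the deposited counts, edgeR 4.0.16 in R 4.3.3 was run with TMM factors and a quasi-likelihood test on genes passing filterByExpr, fitted on the label alone. Adjustment was by Benjamini-Hochberg over all tested genes. Calls used p under 0.05 and a fold of at least 1.5, and log2 CPM a prior count of 2. Shares were compared by two-sided exact permutation over 10 splits. Alternatives used DESeq2 1.42.0, limma 3.58.1, other filters and scalings, a replicate block, and each library left out. The fit without both VHL-KO replicate 4 and VHL-KO;SETD2-KO replicate 3 was added after seeing the data. Fits were tested on simulated data in which 200 genes changed 4-fold. With the common dispersion of these data (0.272), edgeR called 34 of the 200 at an adjusted p under 0.05. Limma-voom called 25, and DESeq2 77 with 22 false calls. With a dispersion of 0.05 edgeR called 197, with 8 false calls. A gene not called after adjustment is therefore not shown to be unchanged. Exon lengths came from GENCODE and covered 96.7% of tested genes, and positions and windows from RefSeq GRCm38.p6. Mitochondrial genes were matched by RefSeq symbol (35 symbols). Libraries of 1 group never agreed within sampling noise (chi-square per degree of freedom of at least 13.3). The members and lists were chosen with earlier results of these data known. Besides the members, named genes were pathway genes called at an unadjusted p, the 4 largest fitted rises and the 4 largest falls among them, the nearest gene to each member, Setd2 and Vhl. Furin, Smad4 and Smad7 were named after their values had been seen.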

Additional observations from a re-analysis of the deposited data

How the results depend on the processing

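Ltbp1, Tgfbr3, Thbs1, Ski and Skil were fitted higher in all 17 alternatives, and most of what changed turned on VHL-KO replicate 4. Values are log2 fold changes unless named otherwise, and the cause of these changes was not tested. Limma-voom gave 0.29 for Ltbp3, 0.15 for Ltbp4, 0.30 for Tgfb3 and 0.29 for Tagln. It called 2 members higher, as did a minimum of 10 counts (beside 2.90% and 2.88% of all genes). Ltbp4 was 0.054 with no filter, 0.019 with that minimum, 0.037 on library sizes without mitochondrial genes and 0.034 without the 20 genes with the highest counts. Sample quality weights gave 1.12 for Ltbp2, 1.04 for Ltbp3, 0.81 for Ltbp4, 1.10 for Tgfb3, 0.091 for Fmod and 1.41 for Tagln. They called 6 members (5 after adjustment) and 24 pathway genes (18) higher, beside 14.5% (9.94%) of all genes, and 3 pathway genes (2) lower. DESeq2 without VHL-KO replicate 4 gave 0.88 for Ltbp2, 1.24 for Ltbp3, 0.76 for Ltbp4, 1.36 for Tgfb3, 0.63 for Col1a1, 0.063 for Fmod, 0.39 for Col3a1 and 2.21 for Tagln. It called 5 members (3 after adjustment) and 19 pathway genes (9) higher, beside 6.02% (3.49%) of all genes, and 3 pathway genes (3) lower. Leaving out VHL-KO replicate 4 and VHL-KO;SETD2-KO replicate 3 together gave 0.64 for Ltbp2, 1.00 for Ltbp3, 0.95 for Ltbp4, 1.17 for Tgfb3, 0.10 for Fmod and 1.26 for Tagln. That fit called 6 members (5) and 25 pathway genes (19) higher, beside 13.4% (8.90%) of all genes, and 3 pathway genes (3) lower. In it 7 members were higher without overlap (32.7% of all genes), and the Ski share difference was 4.45 percentage points. DESeq2 over 6 libraries, and edgeR with no filter, called 1 pathway gene lower. For the fits of this paragraph the share of all genes called lower is not given, so their counts of lower genes cannot be set against a background. DESeq2 gave no member an adjusted p, so it has no adjusted count.

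With each library left out in turn, the range was -1.94 to 0.91 for Ltbp2, -0.80 to 1.25 for Ltbp3, -0.31 to 0.77 for Ltbp4, -0.94 to 1.36 for Tgfb3, -4.05 to 0.64 for Col1a1, -2.15 to 0.40 for Col3a1, -1.96 to 0.070 for Fmod and -2.24 to 2.23 for Tagln. Share differences ranged from -2.61 to 14.7 percentage points for Ltbp1, -1.39 to 0.13 for Ltbp2, -6.77 to 5.90 for Ltbp3, -16.6 to 4.45 for Ski and -2.39 to 2.88 for Tgfb3. Leaving out VHL-KO replicate 4 gave the upper end of each of these ranges except the Ltbp1 share, where it gave the lower end. Members called higher ranged from 0 to 5 and lower from 0 to 1, and members higher without overlap from 2 to 6. The 1 member called lower was Ltbp2, in the fit without VHL-KO replicate 1. The share of all genes called lower in that fit is not given. Pathway genes called higher ranged from 1 to 15 and lower from 0 to 3. The counts of 5, 6, 15 and 3 came without VHL-KO replicate 4. In that fit 8.29% of all tested genes were called higher and 7.15% lower, and 20.1% were higher without overlap. Log2 differences in summed marker CPM ranged from -0.60 to 1.08 for collecting duct, -0.90 to 0.13 for leukocyte, -0.57 to 0.81 for stroma and -0.50 to 0.44 for thick limb. On totals without mitochondrial genes they were -0.997 for proximal tubule, 0.28 for thick limb and 0.26 for stroma, and without both libraries 0.030 for thick limb, 0.63 for stroma and 0.36 for leukocyte.

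Whether the shared replicate numbers pair the samples could not be decided. The correlation of same-numbered libraries, after group means were subtracted, was 0.16 for replicate 2 and -0.32 for replicate 4. So few libraries, with VHL-KO replicate 4 unlike the rest, can neither show nor exclude pairing. With the replicate number as a block, Ltbp4 was 0.084 and Thbs1 1.13. In that fit 0 members and 1 pathway gene were called higher, beside 0.637% of all genes. It called 1 pathway gene lower, and the share of all genes called lower is not given.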
